A study of Drosophila melanogaster with 3 samples.

Results

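The dpr, DIP, beat and side genes are 4 families of Drosophila genes for cell surface proteins with immunoglobulin domains. They were taken from the gene annotation by symbol: protein-coding genes named dpr followed by a digit, DIP-, beat-, and side alone or with a suffix. This gave 54 of the 13945 protein-coding genes on the 6 chromosome arms used, namely 21 dpr, 11 DIP, 14 beat and 8 side genes. They were examined in maps of where the protein CG11504, assayed as a transcription factor per the labels, was found on DNA. The material was intact embryos of 0 to 18 h with both sexes mixed, from a transgenic line that carries a stable insertion of CG11504 joined at its C-terminus to green fluorescent protein (GFP). DNA fragments of 200 to 800 bp, made by sonication, were recovered with anti-GFP antibody and sequenced (ChIP-seq) in 3 biological replicates, which form a single group.

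Proteins of these families are best known from the wiring of the nervous system. Dpr proteins on one neuron bind DIP proteins (Dpr-interacting proteins) on another in selective pairs, and neurons carry different combinations of them. Side, the product of sidestep, is displayed on tissue that motor axons grow along or towards, and Beat-Ia, the product of beaten path Ia on those axons, is its receptor; other Beat and Side proteins bind in pairs of the same kind. A peak in whole embryos is a sum over all their cells, so the cells in which CG11504 sat at a gene cannot be told apart, nor can many cells with little binding from few cells with much.

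The authors deposited a list of 30000 peaks for each replicate, 1 of 30000 for the replicates pooled, and 1 of 10650 peaks that passed their threshold on the irreproducible discovery rate (IDR), a score of how well the ranks of peaks are repeated. Counts below are of summits, the highest points of peaks, in the IDR list, with each replicate given through its own 10650 strongest peaks. The lists share a control library and the IDR list was made from the others, so the spread over replicates is a spread of related lists. Read depth is unknown, and no library without the tag was analysed here. The strength of a peak is given as its rank by the authors' signal value, with rank 1 the strongest.

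At start sites the families stood near the average gene. An IDR summit lay within 500 bp of an annotated start site of 13 of the 54 genes (24.1%, 95% exact binomial interval 13.5 to 37.6), against 22.9% of all protein-coding genes. In replicates 1, 2 and 3 the count was 13, 10 and 14 genes, or 24.1%, 18.5% and 25.9% (mean 22.8% ± 3.85, SD, n = 3), against 25.0%, 23.2% and 25.1% of all genes. The replicate values of members and of all genes overlapped. By family, start summits were found at 5 of 21 dpr genes (23.8%), 1 of 11 DIP genes (9.09%), 4 of 14 beat genes (28.6%) and 3 of 8 side genes (37.5%). The replicates gave 5, 4 and 6 dpr genes, 1 DIP gene each and 4 beat genes each, while side genes numbered 3, 1 and 3. The intervals of the 4 families overlapped, from 0.230 to 41.3% for DIP and 8.52 to 75.5% for side, so no order of the families at start sites can be read from these numbers of genes.

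The members are long genes, and against genes of like length fewer of them had a start summit. Their median length was 36.2 kb (range 3.74 to 379), against 2.17 kb for all protein-coding genes, and 36 of the 54 were longer than 20 kb. Of these 36, 9 had a start summit (25.0%, 95% exact interval 12.1 to 42.2), against 52.8% of all 1013 genes over 20 kb. In the replicates the shares were 25.0%, 19.4% and 27.8% for the members and 52.0%, 48.7% and 54.7% for all genes over 20 kb, so the values did not overlap. Long members also had fewer annotated start sites: 86.1% of them had a single one, against 37.5% of all genes over 20 kb. Among genes over 20 kb with a single start site, 7 of 31 members (22.6%) and 41.6% of all 380 had a start summit.

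The strongest start summit of the families lay upstream of side, the founding gene of its family (chromosome 3R, 27375088 to 27437482, minus strand, dm6). It had rank 85 in the IDR list and ranks 80, 98 and 78 in replicates 1, 2 and 3, and its peak was 2497 bp wide, against a median of 390 bp for all IDR peaks. beat-IIb (3R, 17232253 to 17265049, minus strand) followed with rank 136 and replicate ranks 112, 162 and 133, in a peak 2818 bp wide. Its neighbour and close relative beat-IIa (3R, 17320004 to 17366119, minus strand) had rank 249 and replicate ranks 216, 330 and 223. In both of these genes the strong summit lay not at the most 5′ start but at a further annotated start inside the gene.

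DIP-beta (X, 21422115 to 21457738, minus strand) was the only DIP gene with a start summit, at rank 262 and replicate ranks 220, 384 and 235. dpr5 (3R, 11499984 to 11505951, plus strand), a short gene of 5.97 kb, had rank 272 and replicate ranks 277, 373 and 224. These 5 genes, drawn from all 4 families, therefore held summits among the 500 strongest in every list. The start summits of the other 8 genes were weaker, with IDR ranks from 1138 at dpr14 to 9780 at dpr6.

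**Figure D1:**
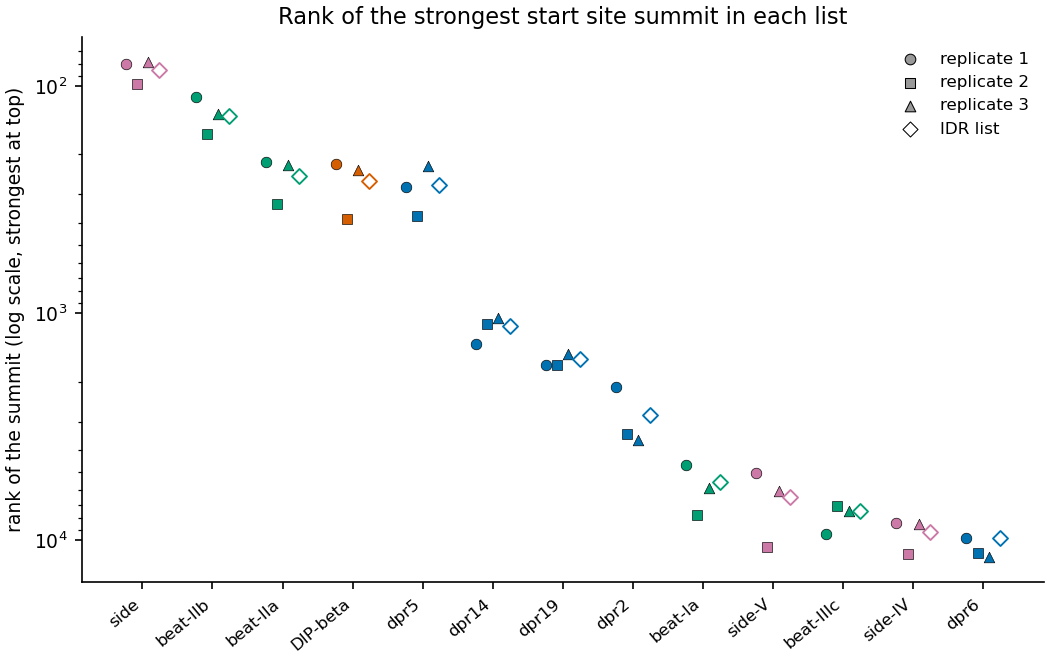
Rank of the strongest summit within 500 bp of a start site for the 13 members with one, in the 3 replicate lists (circle, square, triangle) and the IDR list (diamond), on a log axis with the strongest at the top and colours by family. The 5 genes on the left lie between ranks 78 and 384 in every list, and the other 8 start at rank 1052.

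Among these weaker start summits, dpr14 had rank 1138 (replicates 1369, 1119 and 1052), with its summit at -419 bp from the start, where the start of the gene spidey also lay within 500 bp. At dpr19 the rank was 1585 (1692, 1689 and 1510), and the start of CG33303 was within the same distance; dpr19 held another start summit at rank 8535. Both summits of dpr19 and that of dpr14 can therefore belong to either gene of a pair. dpr2 had rank 2811 (2113, 3387 and 3613) at -475 bp. beat-Ia, the gene of the Side receptor, had rank 5532 (4670, 7707 and 5865), and beat-IIIc had 7452 (9367, 7051 and 7435).

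The remaining 3 were not repeated in every replicate's strongest peaks. side-IV had rank 9151 with replicate ranks 8355, 11471 and 8500, so replicate 2 placed it outside its strongest 10650. For side-V, at rank 6424, the replicate ranks were 5035, 10741 and 6085, again outside in replicate 2. At dpr6 they were 9735, 11369 and 11842, outside in replicates 2 and 3. In all, 10 of the 13 genes had a start summit among the strongest peaks of 3 of 3 replicates. Replicate 3 also had start summits at dpr10 and dpr13.

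Of the 14 start summits, 12 lay upstream of the nearest start site, with a median offset of -87 bp. The offsets were -82 bp at side, -22 bp at beat-IIb, -79 bp at beat-IIa, -125 bp at DIP-beta and -69 bp at dpr5, so the 5 strong summits all lay just before the start.

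The DNA under start summits of each family, up to 3 genes a family in order of strength, is given here because these are places where the signal at the families' promoters peaked. It is followed by the strongest intron summit of the member with the most summits in the beat, DIP and dpr families. Windows of side-V, whose start summit was stronger than that of side-IV and which held the most summits of its family, are not shown. Each line is the summit base with 50 bp on each side, read 5′ to 3′ on the gene's strand from the dm6 reference genome of NCBI. Capitals mark the 6-base words TATAAA and TAATTA, and GTATTT, and also ATATTA and CAGCAG, on either strand, which can overlap; CAGCAG was added after the sequences were seen. The start windows are chr3R:27437514-27437614 (minus) and chr3R:13450448-13450548 (plus) for side genes, chr3R:17247849-17247949 (minus), chr3R:17346362-17346462 (minus) and chr2L:16049704-16049804 (plus) for beat genes, chrX:21457813-21457913 (minus) for DIP-beta, and chr3R:11499865-11499965 (plus), chrX:7908655-7908755 (minus) and chr2L:10375907-10376007 (plus) for dpr genes. The intron windows are chr2L:17243529-17243629 (minus) in beat-IIIc, chrX:3546284-3546384 (minus) in DIP-alpha and chr3L:10110565-10110665 (plus) in dpr6.
side start: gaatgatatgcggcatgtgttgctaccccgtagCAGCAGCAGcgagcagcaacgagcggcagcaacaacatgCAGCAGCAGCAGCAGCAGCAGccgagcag
side-IV start: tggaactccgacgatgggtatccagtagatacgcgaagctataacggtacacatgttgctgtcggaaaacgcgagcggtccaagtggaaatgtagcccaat
beat-IIb start: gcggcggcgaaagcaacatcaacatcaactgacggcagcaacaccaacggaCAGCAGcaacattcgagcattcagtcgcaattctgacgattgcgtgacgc
beat-IIa start: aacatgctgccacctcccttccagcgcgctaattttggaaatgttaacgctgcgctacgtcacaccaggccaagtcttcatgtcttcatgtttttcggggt
beat-Ia start: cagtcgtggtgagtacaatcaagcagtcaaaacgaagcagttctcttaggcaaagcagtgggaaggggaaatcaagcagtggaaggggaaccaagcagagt
DIP-beta start: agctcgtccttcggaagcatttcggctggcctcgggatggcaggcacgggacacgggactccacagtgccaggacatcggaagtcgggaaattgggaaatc
dpr5 start: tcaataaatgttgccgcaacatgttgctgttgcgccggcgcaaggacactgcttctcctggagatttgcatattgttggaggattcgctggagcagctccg
dpr14 start: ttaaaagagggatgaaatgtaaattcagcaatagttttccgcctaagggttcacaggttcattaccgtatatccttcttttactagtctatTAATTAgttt
dpr19 start: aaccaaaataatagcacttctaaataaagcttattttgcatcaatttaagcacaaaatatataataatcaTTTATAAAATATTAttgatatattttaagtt
beat-IIIc intron: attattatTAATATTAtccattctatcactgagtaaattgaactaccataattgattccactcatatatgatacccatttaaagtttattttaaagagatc
DIP-alpha intron: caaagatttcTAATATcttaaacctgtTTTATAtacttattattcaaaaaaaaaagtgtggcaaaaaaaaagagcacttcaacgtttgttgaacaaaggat
dpr6 intron: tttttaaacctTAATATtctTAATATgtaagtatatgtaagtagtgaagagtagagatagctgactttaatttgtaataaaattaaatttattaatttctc

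The strong start windows were rich in G and C and the intron windows poor. Side and DIP-beta each had 60.4% G or C, beat-IIb 54.5%, dpr5 52.5% and beat-IIa 50.5%, while the intron windows of beat-IIIc, DIP-alpha and dpr6 had 23.8%, 25.7% and 19.8%. The weaker start windows spanned both, with 49.5% at beat-Ia, 50.5% at side-IV, 32.7% at dpr14 and 16.8% at dpr19. Runs of CAGCAG stood at side, and 1 copy at beat-IIb. The AT-rich words ATATTA and TATAAA occurred in the introns of DIP-alpha and, for ATATTA, of beat-IIIc and dpr6, both were at dpr19, and TAATTA was at dpr14.

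Over all 91 summits at the start or inside of a member, the mean share of G or C was close to that of the IDR list as a whole. It was 32.5%, against 33.3% for the 10650 IDR summits. The shares of the words in member windows lay on both sides of those in the list. Each rested on only 10 to 24 of the 91 windows, and the differences were not tested. CAGCAG was added after member sequences were seen, so its higher share cannot be read as a result. TATAAA was present in 22.0% of member windows against 24.1%, ATATTA in 26.4% against 22.2%, TAATTA in 15.4% against 10.8%, GTATTT in 11.0% against 15.4% and CAGCAG in 11.0% against 6%. The 6 member summits among the 500 strongest had 51.0% G or C, against 36.1% for those 500, and the other 85 had 31.2% against 33.2% for the rest of the list. The 6 were the start summits of side, beat-IIb, beat-IIa, DIP-beta and dpr5 and an intron summit of beat-Ib at rank 307. Their mean is thus mostly that of start windows. A word in a window is a description and no site of binding.

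Inside the genes the families differed. In all, 81 IDR summits lay between the first and last base of a member, in 29 of the 54 genes (53.7%, 95% exact interval 39.6 to 67.4), against 16.3% of all protein-coding genes and 76.7% of those over 20 kb. Of the 36 members over 20 kb, 25 had one (69.4%). A summit was found inside 7 of 8 side genes (87.5%), 9 of 14 beat genes (64.3%), 10 of 21 dpr genes (47.6%) and 3 of 11 DIP genes (27.3%). Because long genes gather more summits, the families were compared per kb of gene length.

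The beat and side genes were more densely covered than the dpr and DIP genes. The beat family had 30 summits in 525 kb, or 0.0571 per kb, with 0.0533, 0.0552 and 0.0571 in replicates 1, 2 and 3. The side family had 21 in 417 kb, or 0.0504 per kb, with 0.0552, 0.0600 and 0.0552. These families, whose proteins bind each other, had overlapping values. In the dpr family there were 21 in 890 kb, or 0.0236 per kb, with 0.0202, 0.0202 and 0.0169. The DIP family had the lowest density, 9 in 689 kb or 0.0131 per kb, with 0.00870, 0.0102 and 0.0145.

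Every replicate value of beat and side lay above every value of dpr and DIP. The means over replicates were 0.0552 ± 0.00190 for beat and 0.0568 ± 0.00277 for side (SD, n = 3), which did not differ beyond their spread, and 0.0191 ± 0.00195 for dpr and 0.0111 ± 0.00302 for DIP. Pooled by binding pair, beat and side genes had 0.0541 summits per kb and dpr and DIP genes 0.0190. No test was run on these densities, because the 3 replicate lists share a control and genes are not replicates. dpr lay above DIP in 3 of 3 replicates, but this rested on DIP-lambda, a gene of 379 kb without a summit: without it the DIP family had 0.0290 per kb, with 0.0193, 0.0226 and 0.0322 in the replicates, a range that overlapped that of dpr.

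**Figure D2:**
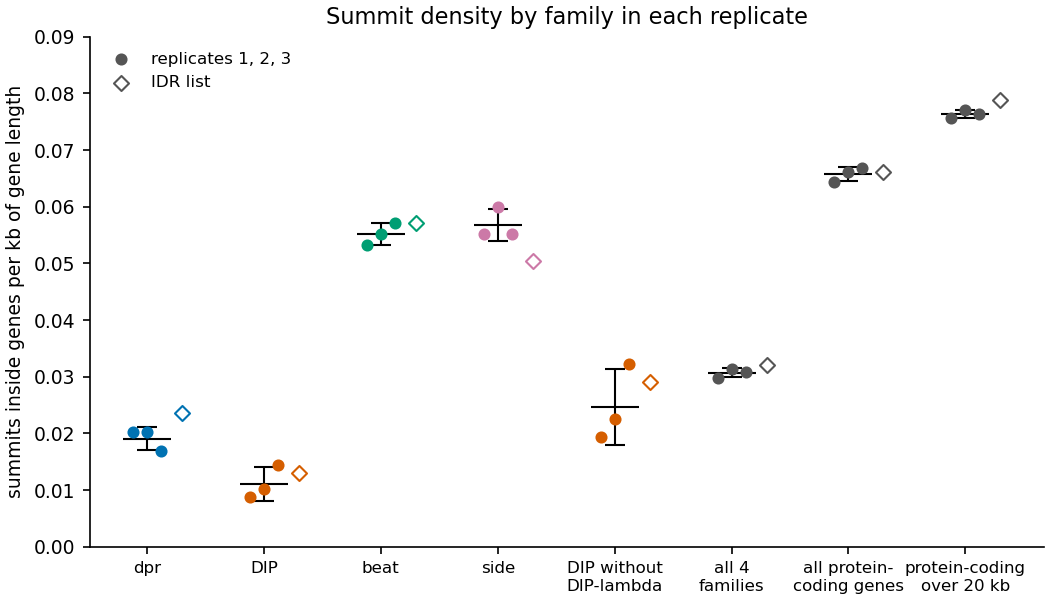
IDR summits inside genes per kb of gene length for the 4 families, for DIP without DIP-lambda, for all members and for protein-coding genes. Filled points are the 10650 strongest peaks of replicates 1, 2 and 3, horizontal lines their mean and SD, and open diamonds the IDR list; beat and side lie at 0.0504 to 0.0600 per kb, dpr and DIP at 0.00870 to 0.0236, and genes over 20 kb above all families.

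Over the 4 families together there were 0.0321 summits per kb, with 0.0297, 0.0313 and 0.0309 in the replicates, against 0.0661 for all protein-coding genes and 0.0788 for those over 20 kb. Members also had the lower density in each class of length over 5 kb, but not among the shortest genes. Members of 20 to 50 kb had 0.0397 per kb against 0.0929 for all genes of that length, those of 50 to 100 kb 0.0481 against 0.0914, and the 4 over 100 kb 0.0111 against 0.0476. Of the 808 kb in these 4 genes, 379 kb were DIP-lambda, which had no summit. In replicates 1, 2 and 3, the members of 20 to 50 kb had 0.0367, 0.0353 and 0.0397 per kb and those of 50 to 100 kb 0.0433, 0.0481 and 0.0469, below the 0.0875 to 0.0921 of all genes in these classes. The 8 members of 10 to 20 kb had 0.0141 per kb against 0.0772. The 6 of 5 to 10 kb had 0 against 0.0651, with 0.0238, 0.0238 and 0 in the replicates. The 4 members up to 5 kb went the other way, with 3 summits or 0.172 per kb (0.172, 0.115 and 0.0574 in the replicates) against 0.0336.

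With weaker peaks added, the families kept the order they had in the IDR list. In the whole pooled list of 30000 peaks, beat genes had 0.276 summits per kb and side genes 0.261, both above the 0.191 of all protein-coding genes, while dpr genes had 0.0977 and DIP genes 0.0464. The median gene held 11.0 pooled summits in the side family, 7.50 in beat, 2.00 in dpr and 0 in DIP. A pooled summit lay within 500 bp of a start of 23 members (42.6%), against 30.4% of all genes, at 10 dpr, 1 DIP, 6 beat and 6 side genes. Over 20 kb the direction was the opposite, with 18 of 36 members against 68.6% of all genes. Of the members over 20 kb without an IDR start summit, 9 of 27 had a pooled one (33.3%), against 33.5% of all such genes.

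**Figure D3:**
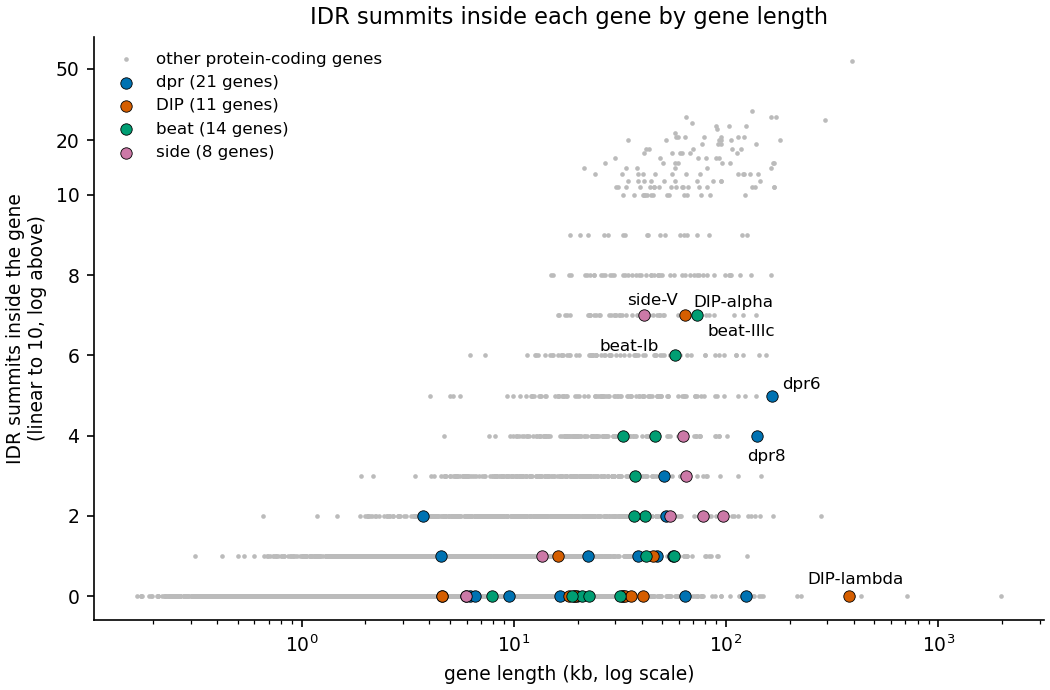
IDR summits inside each gene (vertical axis, linear to 10 and log above) against gene length in kb (log axis), for the 54 members coloured by family and the other protein-coding genes in grey. Members reach at most 7 summits, and DIP-lambda, at 379 kb, has 0.

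Within the beat family the summits were gathered in few genes. beat-IIIc (2L, 17187637 to 17260734, minus strand) held 7, with 7, 6 and 7 in the replicates, spread along its introns, the strongest at rank 2031. beat-Ib (2L, 15905134 to 15962435, minus strand) held 6, with 5, 6 and 6, all in the last part of the gene. Of these, 4 shared a single peak region 2650 bp wide, from 86.0 to 89.3% of the way along the gene, with ranks 307, 535, 1284 and 1474, and the starts of the non-coding genes lncRNA:CR44868 and lncRNA:CR44867 lay within 500 bp of 3 of them. The strong signal inside beat-Ib thus lay at other annotated starts and far from its own.

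beat-IIb held 4 summits inside, with 3, 6 and 5 in the replicates, and beat-IIa 4, with 5, 4 and 4. In each, the strongest was the start summit described above. beat-Vc had 3, beat-Ic and beat-VII had 2 each, and beat-IIIa and beat-VI 1 each. beat-Ia had its start summit and nothing inside, and beat-IIIb, beat-Va, beat-Vb and beat-IV had no IDR summit at all.

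The side family was covered more evenly, with only side-VII, at 5.97 kb the shortest of them, free of IDR summits. side-V (2R, 23163012 to 23203973, minus strand) held 7, with 7, 6 and 7 in the replicates, from its start to 69.6% of the way along the gene. All 7 were weaker than the middle of the IDR list, with ranks from 5884 to 9183. side itself held 4, with 4, 6 and 5, at ranks 2705 to 5751, all in its first 48.5%. side-II held 3, with 3, 3 and 2. side-VIII, side-III and side-VI had 2 each, and side-IV had 1, at rank 1076, its strongest.

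In the dpr family the most summits lay in its longest genes, dpr6 and dpr8. dpr6 (3L, 9974651 to 10139360, plus strand, 165 kb) had 5, with 5, 5 and 3 in the replicates, and dpr8 (X, 14322226 to 14462351, plus strand, 140 kb) had 4, with 3, 4 and 4. dpr3 had 3, with 1, 2 and 2, none stronger than rank 8423. Their best ranks inside were 5630 in dpr6 and 5051 in dpr8, near the middle of the list. dpr19 and dpr1, a gene first known from the response to salt, had 2 each, and dpr2, dpr12, dpr20, dpr10 and dpr9 had 1 each.

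dpr5 and dpr14 had a start summit and none inside. The 9 dpr genes with neither were dpr4, dpr7, dpr11, dpr13, dpr15, dpr16, dpr17, dpr18 and dpr21. They ranged from short genes such as dpr7, of 6.21 kb on chromosome 4, to dpr21, of 125 kb on 2R. The surroundings of these 2 were poor in summits: within 500 kb on each side there were 0.00937 IDR summits per kb around dpr7 and 0.00400 around dpr21, against a median of 0.0860 for dpr genes.

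DIP-alpha (X, 3507245 to 3571649, minus strand, 64.4 kb) stood alone in the DIP family, with 7 of its 9 summits. The replicates gave it 4, 5 and 8, the widest spread of any member, and its flanks were the densest of the DIP genes, with 0.155 summits per kb. Its strongest summit, at rank 783 (930, 771 and 680), lay in an intron near the start of lncRNA:CR34335, and 2 others lay where the channel gene ppk8 overlaps it. DIP-gamma and DIP-eta had 1 intron summit each, in every replicate, at ranks 3219 (3142, 3466 and 3538) and 3406 (3704, 3964 and 3068).

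DIP-beta had its start summit alone, and the other 7, DIP-theta, DIP-epsilon, DIP-iota, DIP-zeta, DIP-kappa, DIP-lambda and DIP-delta, had no IDR summit and none in the whole pooled list. For DIP-lambda the surroundings were bare too, with 0 IDR summits within 500 kb on each side. The surroundings of the other 6 were not bare: they held from 0.0620 summits per kb at DIP-kappa to 0.100 at DIP-theta, a range that includes the family's median of 0.0710.

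**Figure D4:**
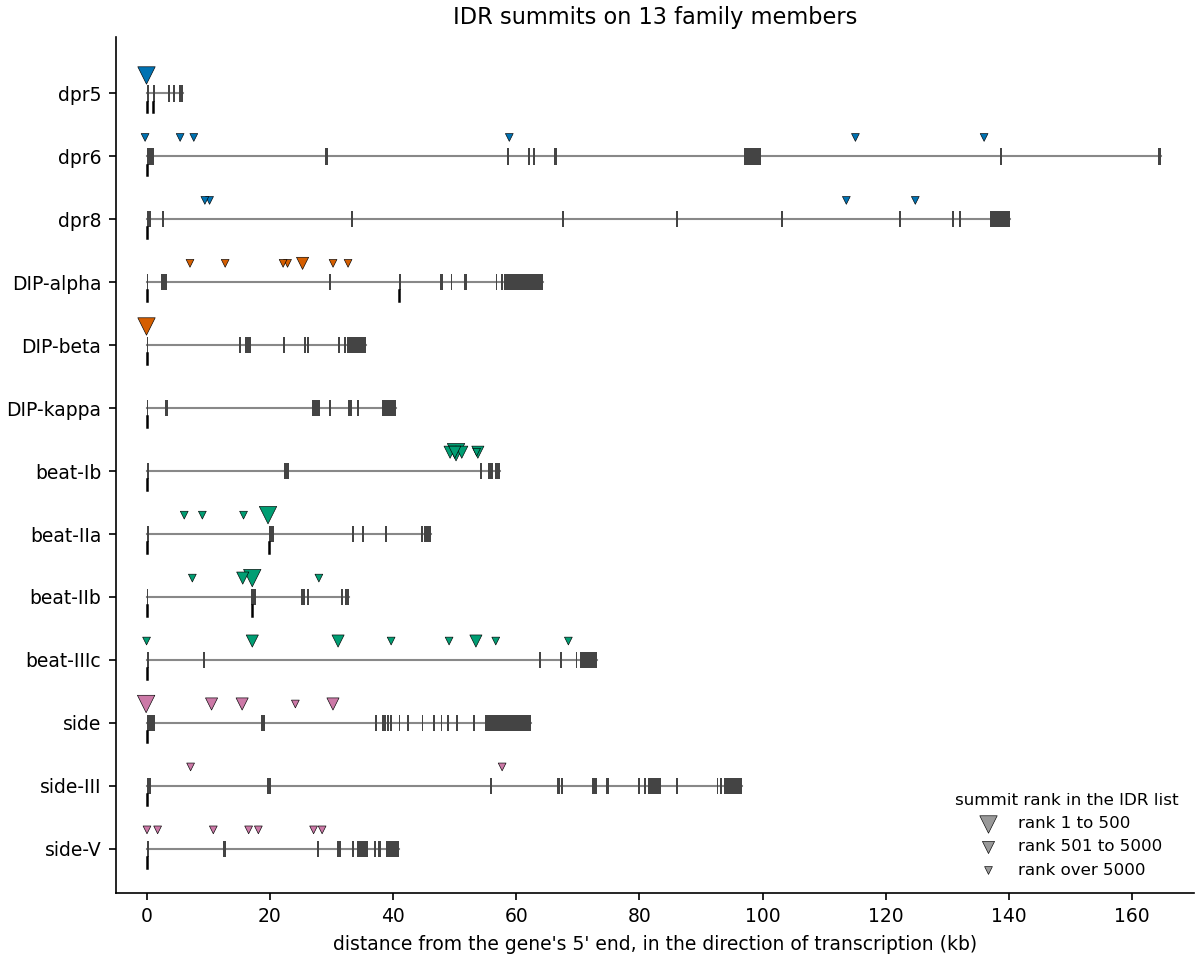
Maps of 13 members drawn from the 5′ end in the direction of transcription (kb), with exons as dark blocks, start sites as ticks below the line and IDR summits as triangles above it, larger for stronger ranks. Strong summits stand at the starts of dpr5, DIP-beta, beat-IIa, beat-IIb and side and in the last part of beat-Ib, weaker ones are strewn through introns, and DIP-kappa has none.

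Altogether 21 members (38.9%) had no IDR summit at a start or inside, against 72.2% of all protein-coding genes and 19.5% of those over 20 kb. Among the 36 members over 20 kb, 9 were without one. They numbered 9 of 21 dpr, 7 of 11 DIP, 4 of 14 beat and 1 of 8 side genes. In 20 of the 21 no replicate had a summit among its strongest peaks either, the exception being dpr13 in replicate 3. In 17 of them the pooled list of 30000 peaks had none as well.

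Most summits inside the members were intronic, and introns make up most of these genes. Of the 81 inside summits 76 were in introns (93.8%), where 91.4% of the members' length lies, 4 in non-coding exons (4.94% against 5.09% of length) and 1 in a coding exon, of dpr19 (1.23% against 3.50%). Only 4 lay within 500 bp of the gene's own start, and 7 were that close to the start of another gene. Along the gene, 4 equal parts from 5′ to 3′ held 22, 27, 17 and 15 summits. This is 27.2%, 33.3%, 21.0% and 18.5%, against 35.5%, 27.4%, 24.0% and 13.1% in the other genes over 20 kb. The member shares take in members of every length, and 76 of the 81 summits lay in members over 20 kb.

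Member summits were repeated about as often as the rest of the list. Of the 91, 64 (70.3%) were matched within 100 bp among the strongest peaks of all 3 replicates, against 72.2% of all IDR summits. Their median rank was 6364, with 2198 for start summits and 6491 for inside ones. By family the median was 5562 for beat, 6424 for side, 6474 for DIP and 8119 for dpr. Among the 1000 strongest IDR peaks were 9 of the 91 (9.89%, against 9.39% of the list).

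Genes whose products bind each other were set side by side, over 14 pairs known from binding studies. In 6 pairs both genes had an IDR summit at a start or inside, and in 8 only one had. Among all 54 members, 21 (38.9%) had no such summit. DIP-gamma, DIP-alpha, side-VI and side-IV each stand in several pairs, so the pairs are not independent. The pairs take in 3 of the 11 DIP genes and, of the 7 DIP genes without a summit, DIP-delta alone, so these counts depend on which pairs were listed. Side and its receptor gene beat-Ia both had a start summit, with 4 inside side and 0 inside beat-Ia. side-IV had 1 start and 1 inside summit, and its partners beat-IIa and beat-IIb each had 1 at a start and 4 inside. Of the beat-V genes, which pair with side-VI (2 inside), beat-Vc had 3 inside and beat-Va and beat-Vb none. side-II had 3 inside and its partner beat-IV none.

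DIP-alpha, with 7 summits inside, pairs with dpr6, which had 1 at its start and 5 inside, and with dpr10, which had 1 inside. DIP-gamma, with 1, pairs with dpr11, dpr15, dpr16 and dpr17, and all 4 were without a summit. DIP-delta had none and its partner dpr12 had 1. With so few genes these values describe the pairs, and no association between partners was tested.

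Other genes of guidance receptors and adhesion molecules, nearly all with immunoglobulin domains, had more CG11504 summits. In a list of 28 such genes, 16 had a start summit (57.1%, 95% exact interval 37.2 to 75.5), with 14, 15 and 18 in the replicates, and the density inside was 0.0954 per kb, with 0.0939, 0.0896 and 0.0932. These replicate values lie above those of each of the 4 families. The genes with the most summits inside were kirre, a gene of muscle fusion and adhesion, with 55 of the 132 in the list (53, 50 and 50 in the replicates), Fas3, an adhesion molecule, with 12 (16, 11 and 14) and Ptp10D, a receptor phosphatase whose outer part is made of fibronectin repeats, with 11 (8, 10 and 12). With 13 of 19 start-bound among those over 20 kb (68.4%), the list differed from the 25.0% of members of that length in all 3 replicates, 57.9%, 57.9% and 68.4% against 25.0%, 19.4% and 27.8%. Of all protein-coding genes over 20 kb, 52.8% had a start summit.

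A list of 15 synaptic partner genes of other kinds, such as the teneurins and neuroligins, had start summits at 8 (53.3%, 95% exact interval 26.6 to 78.7), with 7, 7 and 9 in the replicates. Its density inside, 0.0505 per kb with 0.0436, 0.0465 and 0.0505 in the replicates, lay between the dpr and beat values, and 26 of its 51 summits were in Ten-a. dpr and DIP genes were thus below both lists in density in every replicate.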

How the data were processed

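Peaks of 3 biological replicates, of the replicates pooled, and of the list thresholded on the irreproducible discovery rate were deposited by the authors in dm6. Per the text files deposited beside them, all were called against the same control alignment; which aligner and caller were used, and in which versions, is not stated in them. The deposited signal value, on a scale that is not stated, was used only to rank peaks within a list, and the deposited −log10 q-value was not used. Summit positions are the authors', counted from 1.

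Genes and start sites came from Ensembl release 115 (BDGP6.54, dm6 coordinates). Summits were counted within 500 bp of any start site and between a gene's first and last base. Python 3.11.15, numpy 2.4.6, pandas 2.3.3, scipy 1.17.1 and matplotlib 3.10.9 were used, and the counting was tested on simulated data. Shares carry 95% exact binomial intervals, which cover counting error only. Leaving out a replicate kept the IDR peaks matched within 100 bp in both others.

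The members, lists, pairs and words were chosen with earlier results of these data known. Every member may be named; replicate values are given for those with a start summit and the 3 per family with most summits inside, and for the 3 such genes of the other immunoglobulin list.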

Additional observations from a re-analysis of the deposited data

How the results depend on the processing

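Counts move with how many peaks are used. The order of the 4 families also changed in some settings, while beat and side mostly stayed above dpr and DIP. The 13 of 54 members with a start summit became 8 among IDR peaks above the median signal. The count was 5 among the 1000 strongest and 23 in the whole pooled list. The share of all protein-coding genes moved in the same direction, from 22.9% to 15.8%, 4.42% and 30.4%. The 29 members with a summit inside became 12 among peaks above the median and 4 among the 1000 strongest. For all genes this share went from 16.3% to 11.5% and 3.44%. The 81 summits inside became 23 above the median, 6 among the 1000 strongest and 373 in the pooled list. Whether members differ from all genes in these settings was not tested. Without each replicate in turn there were 10 to 12 genes with a start summit, 24 to 26 with one inside and 61 to 62 summits inside.

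Densities per kb, 0.0321 for members, 0.0236 for dpr, 0.0131 for DIP, 0.0571 for beat and 0.0504 for side, moved by more than the replicate SD in most settings. Above the median signal they were 0.00912, 0.00225, 0.00580, 0.0248 and 0.00960. Among the 1000 strongest peaks they were 0.00238, 0, 0.00145, 0.00952 and 0, and in the pooled list 0.148, 0.0977, 0.0464, 0.276 and 0.261. Distinct regions gave 0.0301 for members and 0.0476 for beat. Gene bodies over 500 bp from their starts gave 0.0310 and 0.0543. Genes extended by 2 kb gave 0.0376 for members, 0.0318 for dpr and 0.0602 for side. Leaving out a replicate, which by construction keeps fewer peaks, gave 0.0242 to 0.0246 for members, 0.0135 to 0.0157 for dpr, 0.00725 to 0.0102 for DIP, 0.0457 to 0.0495 for beat and 0.0432 to 0.0456 for side. Leaving out DIP-lambda, chosen after seeing the data, gave 0.0290 for DIP and 0.0378 for members. Apart from the number of peaks each setting keeps, the cause was not tested.

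Beat and side both lay above dpr and DIP in 8 of 9 such settings, the exception being the 1000 strongest peaks, and members lay below all protein-coding genes in 9 of 9. DIP-lambda was kept in all of these settings, and the densities without it were computed only for the main IDR list. With DIP-lambda kept, side had 0.00960 per kb against 0.00580 for DIP above the median signal. Whether side lies above DIP there without DIP-lambda was not tested. Above the median signal and among the 1000 strongest peaks DIP lay above dpr. Side lay above beat in distinct regions and with genes extended by 2 kb. No paired analysis was possible because the series has a single group. Read depth is unknown, so a gene without a peak had none at this depth and threshold.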

Other observations

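Members that lie side by side on a chromosome differed in what stood between them. The 57.3 kb between beat-Vc and beat-Va held 8 IDR summits, the strongest at rank 771, with 7, 8 and 6 in replicates 1, 2 and 3, although beat-Va itself had none. The 67.6 kb between beat-Va and beat-Vb, also without a summit of its own, held 4 (1, 3 and 1 in the replicates), none stronger than rank 8325. Between beat-Ic and beat-Ia, 8.26 kb apart, lay 2, the stronger at rank 349, with 2 in each replicate. The weaker was the start summit of beat-Ia given above, at rank 5532. Between beat-IIb and beat-IIa, 55 kb apart, there were 2 (3, 1 and 1), and 1 between dpr17 and dpr15 (1 in each replicate). No IDR summit lay between dpr6 and dpr10, dpr5 and dpr4, beat-IIIa and beat-IIIc, beat-Ib and beat-Ic or DIP-eta and DIP-theta. Counts inside genes leave such summits out, and which gene they belong to was not tested.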
